A study of Mus musculus with 24 samples.

Results

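The comparison is that of Cthrc1 knockout with wild type mouse aorta under PBS, the vehicle arm of a study whose other arm received Ang-II/BAPN. Its members were the 12 PBS libraries of the 24 libraries in the series, chosen from their labels alone. They hold 6 libraries labelled cthrc1-/- and 6 labelled WT. Both genotypes carry a plain title in 3 libraries and a title with a leading F in 3, and neither meaning is stated; these are called the plain set and the F set. All mice share the PBS treatment, and the knockout is given only as cthrc1-/-. The labels give no allele, strain, age, sex, litter, hour of collection, PBS schedule or number of pooled animals. Nothing says that the libraries of a group came from separate mice, so the spread behind each p-value is that of libraries and may be technical.

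Cthrc1 encodes a secreted glycoprotein with a short collagen-like repeat. It is known from injured arteries, where adventitial fibroblasts and remodelling smooth muscle produce it, and it binds Wnt, Frizzled and Ror2 proteins of the planar cell polarity pathway. In the unchallenged artery it is known as a gene of low expression. The PBS comparison therefore addresses how the aortas of the genotypes differ before any disease stimulus.

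Total counts per library ran from 39002048 to 82040703, and mitochondrially encoded genes took 13.1% to 31.9% of them. Levels are given as library-scaled counts-per-million values (CPM). Acta2, the actin of smooth muscle, lay between 7119 and 11681 CPM in wild type and between 5922 and 16651 CPM in knockout. Xist was 345 to 739 CPM in F libraries and at most 12.2 CPM in plain ones. The Y-linked gene Ddx3y was at most 0.779 CPM in F libraries and 53.6 to 92.3 CPM in plain ones. By both genes the F set reads as female and the plain set as male, which the labels do not state. Title set and sex therefore cannot be told apart. A group of 4 libraries stood apart by the small nuclear RNA Rn7sk, above 2 CPM in knockout plain 2, knockout F 2, wild type F 2 and wild type F 3 and under 1 CPM in the other 8. Another pair, knockout plain 3 and knockout F 3, held transcripts of pancreatic enzymes. Wild type F 2 also carried reads on an Nnt gene model that was empty in the other 5 wild type libraries. DESeq2's calls are given beside their adjusted p without these libraries where the call was lost.

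Cthrc1, the targeted gene (ENSMUSG00000054196, GRCm38 chr15:39076932-39087121, plus strand), was low in every PBS aorta and lower still in the knockout. Wild type measured 2.08, 1.45 and 2.31 CPM in plain libraries and 1.62, 1.57 and 1.64 CPM in the F set. In knockout it measured 0.172, 0.279 and 0.479 CPM in the plain set and 0.157, 0.494 and 0.516 CPM in the F set. Every knockout library lay below every wild type library, and the knockout mean was 19.7% of the wild type mean. The log2 fold change, knockout minus wild type, was -2.34 ± 0.37 (SE), being -2.64 for plain libraries and -2.04 for F libraries. An exact two-sided permutation test over the 6 and 6 libraries gave p = 0.00216, the smallest that 6 against 6 allows. DESeq2 gave an adjusted p of 2.36e-06. The adjusted p of edgeR's quasi-likelihood test, fitted over all 22778 tested genes, was 0.802 and missed the threshold of 0.05, although no other gene had a smaller one. Between 12 and 44 reads remained on the gene in each knockout library, against 58 to 157 in wild type. Which part of the gene these reads cover was not analysed here.

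**Figure D1:**
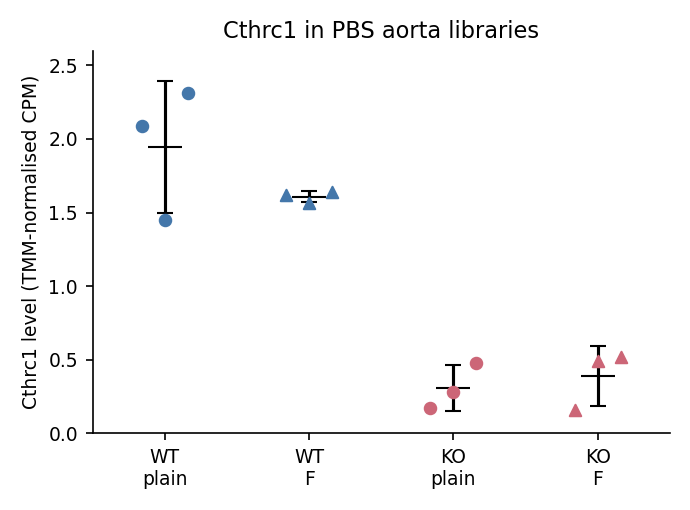
Cthrc1 level in TMM-normalised CPM (vertical axis, from 0) in the 12 PBS libraries, 3 per group; points are libraries, circles the plain set and triangles the F set, and bars the group mean ± SD (n = 3). The 6 knockout libraries sit between 0.157 and 0.516 CPM, all below the 6 wild type libraries at 1.45 to 2.31 CPM.

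Across the transcriptome edgeR called no gene at an adjusted p under 0.05 (0 of 22778, 0%). At an unadjusted p under 0.05 it held 931 genes (4.09%), of which 664 (2.92%) were higher and 267 (1.17%) lower in knockout. DESeq2, with the same terms on the same counts, called 39 of the 16529 genes that its filter kept (0.236%), 22 higher and 17 lower. limma on the deposited FPKM values called 0, and limma-voom with library weights called 1. The median log2 fold change over all tested genes was 0.03. In 41 genes (0.18%) the 6 knockout libraries did not overlap the 6 wild type libraries, 25 higher (0.11%) and 16 lower (0.0702%). Below, a gene is said to have risen or fallen only where DESeq2 called it, and edgeR's fold changes are given with their SE. For the 24 genes chosen by size of p besides Cthrc1, edgeR's adjusted p lay between 0.901 and 0.9998. The DESeq2 count depended on single libraries: it was 163 without knockout F 3, 66 without wild type plain 3, 23 without knockout plain 3, 23 without wild type plain 1 and 19 without wild type F 2.

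Of the 39 genes that DESeq2 called, 10 belong to the lists of circadian clock and clock output genes. The clock of a cell is a loop in which Arntl (Bmal1) with Clock or Npas2 binds E-box sequences and switches on Per, Cry, Nr1d1 and Nr1d2, whose products then hold back Arntl and its partners. The arms of the loop therefore peak at opposite hours, in the artery as in other tissues. The proline- and acid-rich bZIP factors Dbp, Tef and Hlf carry the rhythm to output genes through D-box sequences, which the repressor Nfil3 also binds. Promoter sequences of 4 of these genes are shown because they hold the short sequences through which the arms of the loop are known to be read. Each is the 250 bases before the RefSeq start on GRCm38.p6, 5′ to 3′ on the strand of the gene, minus in all 4. Capitals mark the E-box CACGTG in Ciart (chr3:95882229-95882478) and Bhlhe41 (chr6:145865421-145865670), the D-box TTATGTAA in Per3 (chr4:151044666-151044915), and TGACCT, the reverse complement of the ROR and REV-ERB half-site AGGTCA, in Nfil3 (chr13:52981040-52981289).
Ciart: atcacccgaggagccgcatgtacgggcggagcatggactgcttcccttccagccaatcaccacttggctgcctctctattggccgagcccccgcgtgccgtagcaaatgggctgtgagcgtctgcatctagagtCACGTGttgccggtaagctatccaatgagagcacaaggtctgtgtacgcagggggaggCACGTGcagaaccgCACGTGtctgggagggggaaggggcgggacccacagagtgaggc
Bhlhe41: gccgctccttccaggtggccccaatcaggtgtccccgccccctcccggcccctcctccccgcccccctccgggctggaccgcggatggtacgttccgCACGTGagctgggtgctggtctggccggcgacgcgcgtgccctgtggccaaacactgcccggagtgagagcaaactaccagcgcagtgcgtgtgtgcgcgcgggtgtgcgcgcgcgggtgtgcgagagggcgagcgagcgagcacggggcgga
Per3: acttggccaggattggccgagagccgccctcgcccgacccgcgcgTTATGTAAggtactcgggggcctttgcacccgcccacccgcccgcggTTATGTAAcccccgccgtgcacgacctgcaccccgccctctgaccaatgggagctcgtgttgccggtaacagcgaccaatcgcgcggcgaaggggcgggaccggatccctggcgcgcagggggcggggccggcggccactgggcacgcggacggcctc
Nfil3: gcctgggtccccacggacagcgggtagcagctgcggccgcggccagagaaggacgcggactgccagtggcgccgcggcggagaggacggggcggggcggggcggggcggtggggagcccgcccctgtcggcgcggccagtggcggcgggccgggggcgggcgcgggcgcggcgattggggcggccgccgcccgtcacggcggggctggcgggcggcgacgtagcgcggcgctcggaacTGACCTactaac
The Ciart window holds 3 E-boxes, that of Bhlhe41 1, that of Per3 2 D-boxes and that of Nfil3 1 half-site. CACGTG, a palindrome, occurs in 6.02% of the 32851 RefSeq windows of this length, TTATGTAA on either strand in 0.819%, and AGGTCA or TGACCT in 14%. By gene, 7 of the 23 clock and clock output genes with a window hold an E-box (30.4%), against 6.86% of all 27025 gene symbols. Of these, Cry1, Fkbp5, Per1 and Ppp1r3c were not called by DESeq2. The D-box is in 1 of the 23, Per3 (4.35%, against 0.977%). The half-site is in 6 (26.1%, against 15.8%). A match describes the letters in the window and shows no binding.

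Among the core clock genes, Ciart, Per3, Bhlhe41 and Nr1d1 fell in knockout and Arntl rose. Ciart, a repressor of the Arntl-Clock complex whose promoter with 3 E-boxes is printed above, measured 17.5, 1.40 and 1.22 CPM in plain wild type and 12.6, 22.4 and 20.5 CPM in F wild type. In knockout it measured 0.606, 0.952 and 0.795 CPM in the plain set and 2.17, 1.06 and 1.28 CPM in the F set. All 3 F wild type libraries and plain wild type 1 were high, and plain wild type 2 and 3 lay within the knockout range. Its log2 fold change was -3.36 ± 0.62, and it fell by DESeq2 (adjusted p = 7.69e-06). Per3, a period protein that paces the loop, had a median of 86.7 CPM in wild type (16.4 to 117) and of 14.7 CPM in knockout (11.6 to 35.9), with a log2 fold change of -1.95 ± 0.43 and a DESeq2 adjusted p of 0.00312. Bhlhe41, a repressor that competes for the E-box, had medians of 41.0 CPM in wild type (9.86 to 61.6) and 13.2 CPM in knockout (9.13 to 18.4), a log2 fold change of -1.47 ± 0.33 and a DESeq2 adjusted p of 0.0129. Plain wild type 3 lay within the knockout range for both genes, and plain wild type 2 for Per3.

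Nr1d1 (REV-ERBalpha), the receptor that represses Arntl, differed between genotypes in the plain libraries without overlap. It measured 276, 239 and 146 CPM in plain wild type against 40.8, 33.2 and 43.5 CPM in plain knockout, with no overlap. In the F set it measured 293, 239 and 163 CPM in wild type and 219, 145 and 106 CPM in knockout, which overlap. Over both sets it fell (log2 fold change -1.53 ± 0.38, DESeq2 adjusted p = 0.0129). Its relative Nr1d2 had a log2 fold change of -1.52 ± 0.49 and the period genes Per2 and Per1 of -1.56 ± 0.46 and -1.29 ± 0.53, and DESeq2 called none of these 3.

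The positive arm had the opposite sign. Arntl, the activator of the loop, measured 2.77, 13.6 and 31.7 CPM in plain wild type and 2.30, 1.06 and 2.99 CPM in F wild type. It measured 34.9, 37.0 and 36.6 CPM in plain knockout and 13.3, 21.6 and 26.1 CPM in F knockout. Within each set every knockout library lay above every wild type library, and only plain wild type 2 and 3 reached the range of the F knockouts. Arntl rose in knockout (log2 fold change 2.20 ± 0.58, DESeq2 adjusted p = 0.0138). Its partner Npas2 had a log2 fold change of 2.02 ± 0.82 and was not called (DESeq2 adjusted p = 0.259), and its other partner Clock one of 0.43 ± 0.31.

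The output factors followed the same division of libraries. Dbp, an activator at D-boxes, measured 217, 79.0 and 10.3 CPM in plain wild type and 282, 330 and 199 CPM in F wild type. It measured 5.54, 5.29 and 8.18 CPM in plain knockout and 77.9, 22.7 and 25.3 CPM in F knockout. Within each set the genotypes did not overlap, but plain wild type 3 lay below every F knockout. Dbp fell (log2 fold change -3.34 ± 0.63, DESeq2 adjusted p = 4.95e-06). Tef and Hlf, of the same family, also fell, by 1.47 and 1.40 on the log2 scale. Nfil3, the repressor of the D-box whose promoter is shown above, rose from a median of 6.4006 CPM (4.84 to 19.2) to one of 23.1 CPM (14.4 to 39.4), with a log2 fold change of 1.53 ± 0.28 and a DESeq2 adjusted p of 0.000643. Wee1, a cell cycle kinase that the clock drives through E-boxes, fell (log2 fold change -1.53 ± 0.39, DESeq2 adjusted p = 0.0377), a call made in 4 of the 12 fits that left out a library.

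**Figure D2:**
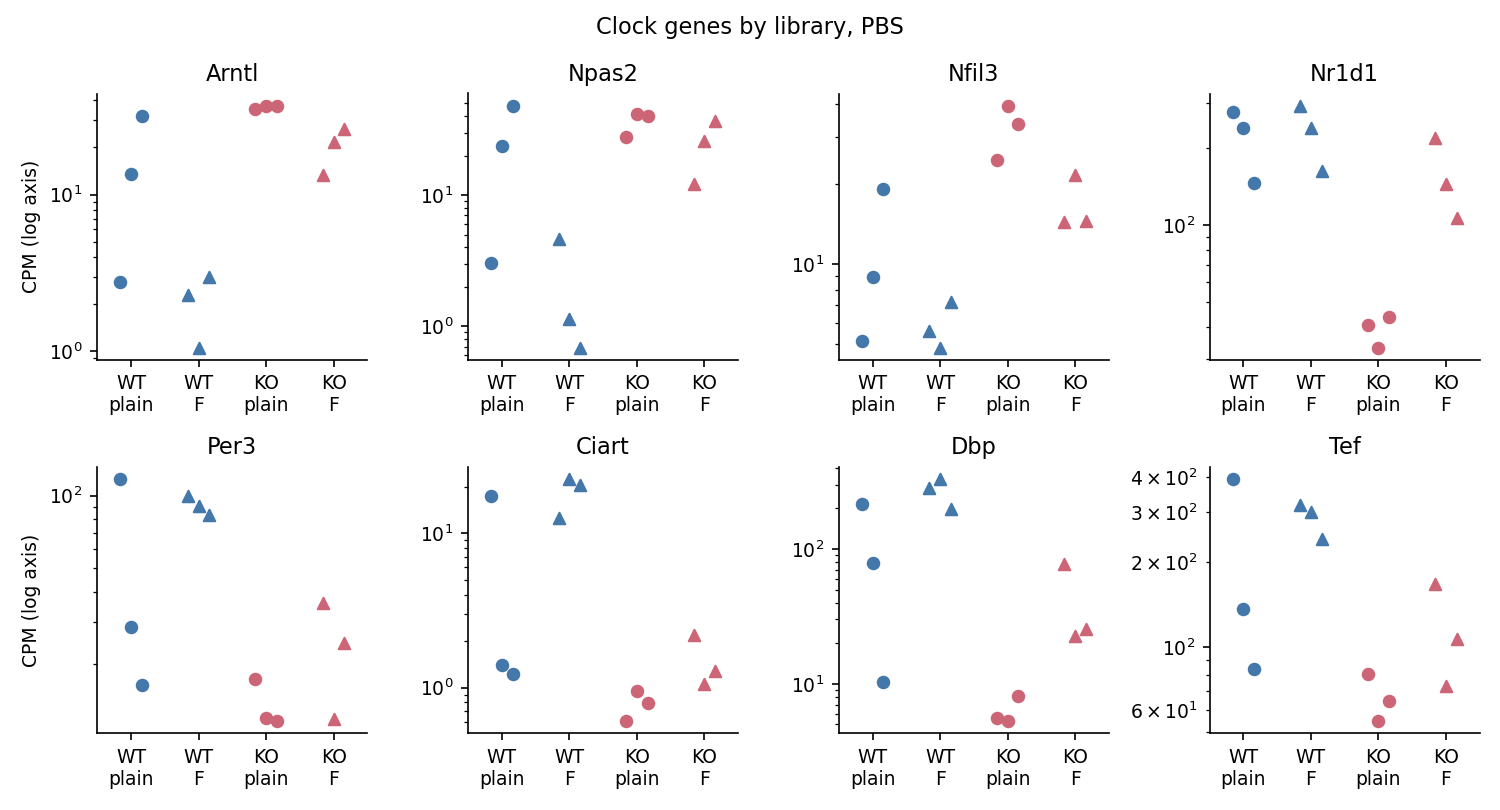
Levels of 8 clock and clock output genes in CPM (log axes, one panel a gene) in the 12 PBS libraries, replicates 1 to 3 from left to right within a group; circles are the plain set and triangles the F set, blue wild type and red knockout. Arntl, Npas2 and Nfil3 are high and Per3, Ciart, Dbp and Tef low in knockout, and plain wild type 3 lies near the knockout libraries for most of these genes (Dbp 10.3 CPM, Arntl 31.7 CPM).

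Over the list of 15 core clock genes, all tested, edgeR called 0 in either direction, DESeq2 called 1 higher and 4 lower, and an unadjusted edgeR p under 0.05 held 2 higher and 8 lower. Their median log2 fold change was -0.48, against 0.03 for all genes. Over the 13 clock output genes DESeq2 called 1 higher and 4 lower, 1 higher and 8 lower had an unadjusted p under 0.05, and the median was -0.92. Of all genes its filter kept, DESeq2 called 0.133% higher and 0.103% lower. An unadjusted edgeR p under 0.05 held 2.92% of all tested genes higher and 1.17% lower. Both lists were chosen with earlier results of these data known. No member of either list had knockout and wild type libraries fully apart. The summed level of the core list was 579 to 1222 CPM in wild type and 441 to 755 CPM in knockout, which overlap over both sets together. That of the output list was 803 to 1501 CPM and 328 to 696 CPM, with no overlap. The named clock genes kept their sign in all 25 alternative analyses, but DESeq2's calls for several of them did not hold without the 4 libraries with high Rn7sk: the adjusted p became 0.0624 for Dbp, 0.419 for Per3, 0.632 for Arntl, 0.520 for Tef, 0.152 for Hlf and 0.421 for Wee1, and DESeq2 gave Ciart none, while Nfil3 (0.0456), Bhlhe41 (0.0453) and Nr1d1 (8.63e-05) stayed called. Without the libraries with pancreatic transcripts, it was 0.0744 for Arntl, 0.107 for Tef, 0.107 for Hlf, 0.202 for Wee1, 0.133 for Bhlhe41 and 0.164 for Nr1d1, and Dbp (0.000916), Ciart (0.00124), Nfil3 (0.0101) and Per3 (0.0453) stayed called. The hour of collection is not in the labels, so genotype and hour of collection cannot be told apart for these genes.

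**Figure D3:**
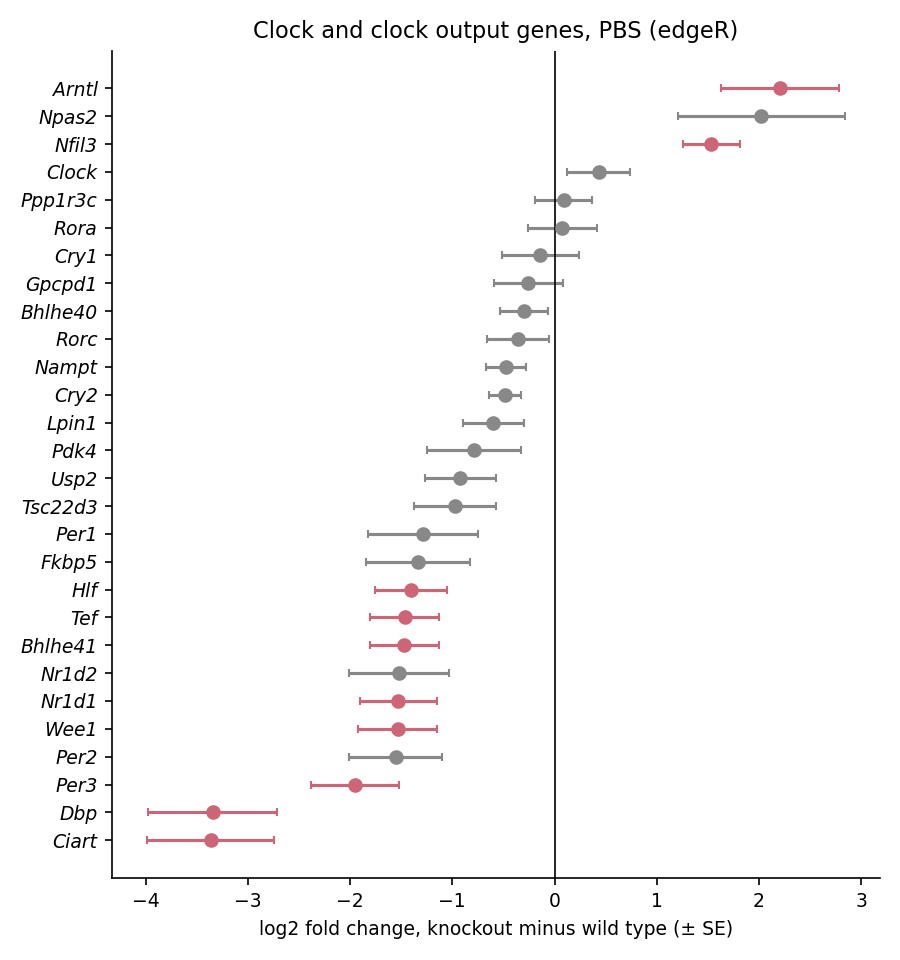
Log2 fold change, knockout minus wild type (horizontal axis), with its SE from edgeR for the tested genes of the core clock and clock output lists, 6 libraries against 6. Red points were called by DESeq2 at an adjusted p under 0.05 and grey ones were not, and the points run from -3.36 (Ciart) to 2.20 (Arntl).

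Beyond the clock, Tcap, Slc5a6, Kcns3 and Tmcc3 fell. Tcap (telethonin), a sarcomere protein of striated muscle, had a median of 101 CPM in wild type (16.7 to 158) and of 19.7 CPM in knockout (12.99 to 33.1). Plain wild type 2 and 3, at 31.7 and 16.7 CPM, were the wild type libraries within the knockout range, and the log2 fold change was -1.91 ± 0.40 (DESeq2 adjusted p = 0.00227). Slc5a6, the sodium-dependent multivitamin transporter, spread little: 13.3 to 20.1 CPM in wild type and 6.85 to 13.4 CPM in knockout. The groups met at 13.4 CPM, in knockout F 1, and the log2 fold change was -0.77 ± 0.15 (DESeq2 adjusted p = 0.00127). Kcns3, a modulatory potassium channel subunit, had medians of 10.3 and 4.90 CPM and a log2 fold change of -0.92 ± 0.23 (DESeq2 adjusted p = 0.0380). Tmcc3, a protein of the endoplasmic reticulum membrane, lay at 61.9 to 81.3 CPM in wild type and at 35.3 to 61.6 CPM in knockout with no overlap (log2 fold change -0.55 ± 0.14, DESeq2 adjusted p = 0.0498). Over the 12 fits that left out a library, DESeq2 called Tcap and Slc5a6 in 12, Kcns3 in 3 and Tmcc3 in 2.

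Of the genes that rose, Glipr2, a Golgi-associated protein linked to kidney fibrosis, did so with groups fully apart. It lay at 10.5 to 15.7 CPM in wild type and at 16.7 to 24.7 CPM in knockout, with a log2 fold change of 0.61 ± 0.13 and a DESeq2 adjusted p of 0.00711. Nkx6-1, a homeobox factor best known from pancreatic beta cells, had medians of 7.07 CPM (wild type) and 14.4 CPM (knockout), with ranges that overlap (log2 fold change 1.04 ± 0.22, DESeq2 adjusted p = 0.0142). Rhpn1 had medians of 0.671 and 2.14 CPM (log2 fold change 2.17 ± 0.50, DESeq2 adjusted p = 0.0129). Scx, the tendon and ligament transcription factor scleraxis, lay at 4.04 to 6.32 CPM in wild type and 5.52 to 18.7 CPM in knockout (log2 fold change 1.03 ± 0.24, DESeq2 adjusted p = 0.0498). Exoc3l4 and Fgfbp3 had groups fully apart, with log2 fold changes of 0.96 ± 0.23 and 0.95 ± 0.23 and DESeq2 adjusted p-values of 0.0387 and 0.0165. Of the 12 fits that left out a library, DESeq2 called Glipr2 in 10, Rhpn1 in 7 and Nkx6-1 and Fgfbp3 in 6. It called Exoc3l4 in 3 and Scx in 2. Klhl3, the adaptor that marks WNK kinases for degradation, also had groups that did not overlap and was not called: 2.76 to 4.9975 CPM in wild type and 5.28 to 14.3 CPM in knockout (log2 fold change 1.03 ± 0.26, DESeq2 adjusted p = 0.0570). It was chosen after its values were seen. Without the 4 libraries with high Rn7sk the DESeq2 adjusted p was 0.237 for Tcap, 0.259 for Slc5a6, 0.331 for Tmcc3, 0.355 for Scx, 0.277 for Exoc3l4, 0.154 for Rhpn1 and 0.0769 for Nkx6-1 and Fgfbp3, while Glipr2 (0.0275) and Kcns3 (3.8e-06) stayed called. Without the libraries with pancreatic transcripts Glipr2 (0.0815), Tcap (0.0523) and Fgfbp3 (0.245) were not called.

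Nnt encodes the mitochondrial transhydrogenase, which makes NADPH in the inner membrane, and the C57BL/6J line is known to carry a deletion within it. The deposited table counts it as a pair of overlapping gene models on chromosome 13, whose shares of the reads are therefore uncertain. On the main model (ENSMUSG00000025453), knockout lay at 7.24 to 19.8 CPM and wild type at 13.5 to 65.9 CPM, and only wild type F 2 fell among the knockouts. This model fell (log2 fold change -1.88 ± 0.39, DESeq2 adjusted p = 0.00127). On the second model (ENSMUSG00000116207), 5 of the 6 wild type libraries had 0 reads, which at 3 counts allows up to 0.0748 CPM in the shallowest of them. Wild type F 2 had 478 reads there, and the knockouts had 667, 293 and 645 in the plain set and 1021, 889 and 754 in the F set. Summed over both models, Nnt had a median of 54.0 CPM in wild type (22.2 to 65.9) and of 22.7 CPM in knockout (14.04 to 33.2), with a log2 fold change of -1.09 ± 0.29 and an edgeR adjusted p of 0.9999. EdgeR did not call the main model alone either (adjusted p = 0.958), and DESeq2 was not run on the sum. Without wild type F 2, or without the 4 libraries with high Rn7sk, edgeR called the second model. Both fits leave out wild type F 2, the only wild type library with reads there, so these calls add no support. The strain of each genotype is not in the labels, so genotype and strain background cannot be told apart here.

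Pisd-ps1 and Pisd-ps2, transcribed pseudogenes of phosphatidylserine decarboxylase, had the same direction as each other. Pisd-ps1 lay between 20.049 and 23.9 CPM in the 6 wild type libraries. It measured 46.5, 17.9 and 41.1 CPM in plain knockout and 64.6, 41.8 and 66.9 CPM in F knockout, so that knockout plain 2 alone lay below wild type. It rose (log2 fold change 1.05 ± 0.22, DESeq2 adjusted p = 0.00770), a call made in 8 of the 12 fits that left out a library. With all 12 libraries edgeR's adjusted p was 0.958. Without knockout plain 2 edgeR's adjusted p was 0.0339 (log2 fold change 1.21). That fit leaves out the only knockout library below wild type, so it adds no support. Without the libraries with pancreatic transcripts DESeq2 called neither Pisd-ps1 (0.129) nor Pisd-ps2 (0.202). Pisd-ps2 rose with a log2 fold change of 0.89 ± 0.22 (DESeq2 adjusted p = 0.0442), a call made in 3 of the 12 fits that left out a library. Reads of these copies can be shared with each other and with Pisd, so their separate levels are uncertain.

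Genes best known from organs other than the aorta were also among those higher in knockout. The 12 kidney tubule genes, all tested, had a median log2 fold change of 1.75. None was called by either tool, and 7 had an unadjusted edgeR p under 0.05, all higher, against 2.92% of all tested genes. Their summed level was 251, 105 and 591 CPM in plain wild type and 694, 110 and 316 CPM in F wild type. It was 356, 333 and 2536 CPM in plain knockout and 1983, 2509 and 123 CPM in F knockout. A set of 3 knockout libraries, plain 3, F 1 and F 2, lay above all others, and the other 3 lay within the wild type range. Umod, the main urinary protein of the loop of Henle, ran from 0.698 to 31.4 CPM in wild type and from 2.72 to 177 CPM in knockout (log2 fold change 2.48 ± 0.90). Slc34a1, the phosphate transporter of the proximal tubule, ran from 19.9 to 171 CPM and from 41.4 to 1184 CPM (log2 fold change 1.86 ± 0.82).

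Ren1, the gene for renin, which the kidney secretes to form angiotensin, rose beside these. It measured 0.247, 1.07 and 1.27 CPM in plain wild type and 2.85, 0.765 and 0.991 CPM in F wild type. In knockout it measured 1.92, 10.2 and 3.07 CPM in the plain set and 11.4, 11.2 and 1.64 CPM in the F set. Knockout plain 2 was high in Ren1 and not in the tubule genes, and the groups overlapped (log2 fold change 2.46 ± 0.62, DESeq2 adjusted p = 0.0138). Without the 4 libraries with high Rn7sk its DESeq2 adjusted p was 0.647. The part of kidney RNA in the Ren1 result was not tested. Of the 13 genes of the renin-angiotensin list, Ren1 was the one DESeq2 called, and the list's median log2 fold change was 0.34. The angiotensin receptor gene Agtr1b had a log2 fold change of -0.57 ± 0.29 and was not called.

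Major urinary protein genes, secreted pheromone carriers of the mouse liver and glands, were present at a low level. This list was drawn up after their values were seen, and 5 of its 19 tested members were called by DESeq2, all higher. Of all genes its filter kept, DESeq2 called 0.133% higher. As the list was drawn from these values, its count adds no support. Mup2 measured 0.0707, 0.474 and 0.575 CPM in plain wild type and 1.20, 0.765 and 1.49 CPM in F wild type, and 1.96, 1.16 and 2.53 CPM in plain knockout and 6.70, 3.98 and 5.33 CPM in F knockout. Within each set the genotypes did not overlap (log2 fold change 2.27 ± 0.42, DESeq2 adjusted p = 2.17e-05). Mup14, Mup13, Mup10 and Mup22 had log2 fold changes between 1.94 and 2.50. Mup13 lost its call without the 4 libraries with high Rn7sk (DESeq2 adjusted p = 0.0503) and without the libraries with pancreatic transcripts (0.0749). Copies of this family are nearly identical, so reads can be split among them. The summed level of the list was 1.15 to 30.1 CPM in wild type and 13.3 to 148 CPM in knockout.

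The liver-type genes Ttr, the carrier of thyroxine, and Apoa2, a lipoprotein of the plasma, also rose. Ttr lay at 0.636 to 3.09 CPM in wild type and at 3.85 to 7.89 CPM in knockout with no overlap (log2 fold change 1.71 ± 0.37, DESeq2 adjusted p = 0.00458), and its adjusted p was 0.142 without the 4 libraries with high Rn7sk. Apoa2 lay at 0.106 to 1.9951 CPM and at 1.02 to 9.81 CPM (log2 fold change 2.95 ± 0.75, DESeq2 adjusted p = 0.00979). The liver list of 9 genes had a median log2 fold change of 0.51, being -0.18 for plain and 1.29 for F libraries. Its summed level was lower in knockout, with a median of 383.9 CPM (257.3 to 677.8) against 703.5 CPM in wild type (323.9 to 797.8), and the ranges overlap. Its member Alb ran from 1.29 to 88.7 CPM in wild type and from 2.09 to 49.3 CPM in knockout. In the same list Cyp2e1 had a log2 fold change of -0.86 ± 0.31. The part of RNA from other organs in the Mup, Ttr and Apoa2 results was not tested.

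Pancreatic acinar enzymes were highest in 2 libraries. The summed level of the 15 acinar genes, a list also drawn up after the values were seen, was 372 CPM in knockout plain 3 and 464 CPM in knockout F 3, and 2.80 to 7.49 CPM in the other 10 libraries. Without those 2 libraries the median log2 fold change of the list was 3.28, at levels near 0: Cpa1, a carboxypeptidase, had no read in wild type and a knockout median of 0.481 CPM over all 6 libraries. Ctrb1, chymotrypsinogen, measured 43.6 and 54.6 CPM in those libraries and at most 0.776 CPM in the other 10, so that its place among the named genes rests on them. Cela1, the elastase of the acinar cell, rose by DESeq2 (adjusted p = 0.0143), and without these libraries its adjusted p was 0.474, and 0.109 without the 4 with high Rn7sk. Ttr and Apoa2 lost their DESeq2 call without them as well, with adjusted p-values of 0.0702 and 0.117.

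**Figure D4:**
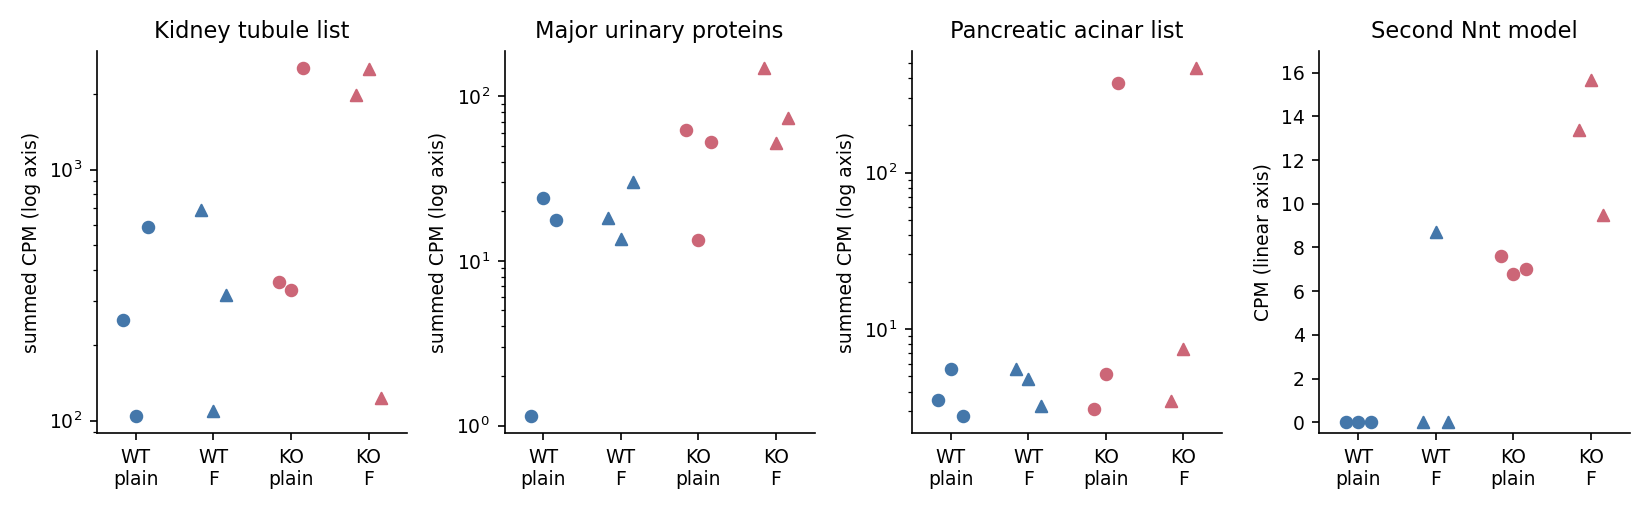
Summed level in CPM of the kidney tubule, major urinary protein and pancreatic acinar lists (log axes) and level of the second Nnt gene model (linear axis) in the 12 PBS libraries; circles are the plain set and triangles the F set, blue wild type and red knockout. Kidney transcripts are highest in 3 knockout libraries (1983 to 2536 CPM), acinar transcripts in 2 (372 and 464 CPM), and the second Nnt model is at 0 in 5 of 6 wild type libraries.

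No gene of the wall lists was called. Of the 18 contractile genes of smooth muscle, all tested, none was called by either tool or reached an unadjusted p under 0.05, and their median log2 fold change was 0.01, with a range from -0.38 to 0.34. Myh11, the smooth muscle myosin heavy chain, lay at 2861 to 5743 CPM in wild type and 3337 to 5360 CPM in knockout (log2 fold change -0.15 ± 0.18). Smtn (smoothelin), a marker of the fully contractile state, had a log2 fold change of -0.22 ± 0.18. The summed contractile level was highest in knockout plain 2 and knockout F 2, at 42570 and 40820 CPM, both libraries with high Rn7sk, against 21210 to 34020 CPM in the other 10. Without the 4 libraries with high Rn7sk the median of the list was -0.25. The 16 genes that regulate smooth muscle identity had a median of -0.04 and no call.

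The collagen, elastic fibre and matricellular lists had medians of opposite sign in the title sets and no call. For plain and F libraries the median log2 fold change was -0.07 and 0.53 in the collagen list, -0.10 and 0.35 in the elastic fibre list and -0.22 and 0.44 in the matricellular list. Of the 20 collagen genes, 17 had a positive log2 fold change, the median was 0.24 and none was called. Col3a1, of the fibrillar collagen of stretchable vessels, ran from 1221 to 5150 CPM in wild type and from 3081 to 4728 CPM in knockout (log2 fold change 0.61 ± 0.29). Col1a1, of type I collagen, ran from 1256 to 5631 CPM and from 1893 to 4753 CPM (log2 fold change 0.52 ± 0.29). The lowest values were those of wild type F 2 and F 3, in which the list summed to 7537 and 8015 CPM, against 12680 to 24780 CPM in the other 10 libraries. Without the 4 libraries with high Rn7sk, which include those, the median of the list was -0.06. In the 17 genes of the elastic fibre the median was 0.17 and became -0.12. In the 22 genes that fold and cross-link collagen it was 0.20, with 21 positive, and became 0.00. That list had medians of the same sign in the title sets, 0.06 for plain and 0.31 for F libraries. A different number of matrix-producing cells and a different amount of RNA per cell cannot be told apart in whole tissue, here or in the lists that follow.

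Of the collagen folding and elastic fibre lists, Serpinh1, P4ha1 and Mfap2 had an unadjusted p under 0.05 and no DESeq2 call. Serpinh1 (Hsp47), the chaperone of procollagen, lay at 556 to 869 CPM in wild type and at 683 to 1445 CPM in knockout (log2 fold change 0.62 ± 0.20, DESeq2 adjusted p = 0.341). P4ha1, a prolyl hydroxylase subunit, had a log2 fold change of 0.46 ± 0.21. Mfap2, a microfibril glycoprotein, had one of 0.80 ± 0.31. Ltbp4, which tethers latent TGF-beta to microfibrils, had one of -0.27 ± 0.14 and an unadjusted p of 0.0820.

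Matricellular genes held the strongest of these near misses. Ccn2 (CTGF), a matrix-bound target of YAP and TGF-beta signalling, measured 724, 482 and 574 CPM in plain wild type and 679, 352 and 460 CPM in F wild type. It measured 822, 1786 and 1009 CPM in plain knockout and 969, 1376 and 636 CPM in F knockout, so that only knockout F 3 fell within the wild type range. Its log2 fold change was 1.01 ± 0.25, with a DESeq2 adjusted p of 0.0598. Over the 25 alternative analyses this fold change ran from 0.49 to 1.15, and from 0.83 to 1.14 when a library was left out. The highest Ccn2 levels were those of knockout plain 2 and knockout F 2, both with high Rn7sk. Thbs1 (thrombospondin), an activator of latent TGF-beta, had medians of 84.2 and 144 CPM (log2 fold change 0.85 ± 0.26, DESeq2 adjusted p = 0.229). Ccn1 (CYR61), of the Ccn2 family, had a log2 fold change of 1.04 ± 0.37, and Prelp, a proteoglycan of basement membranes, one of -0.44 ± 0.17. Over the 25 genes of this list the median was 0.08, which became -0.25 without the 4 libraries.

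Matrix proteases and their inhibitors, 21 genes, had a median log2 fold change of 0.19 and no call. Timp1, the inducible inhibitor of metalloproteinases, lay at 5.99 to 10.7 CPM in wild type and at 7.44 to 21.6 CPM in knockout (log2 fold change 0.76 ± 0.26). Mmp14, the membrane-anchored collagenase, had a log2 fold change of 0.58 ± 0.23, and Mmp3 (stromelysin) one of 0.74 ± 0.31. All 3 had an unadjusted edgeR p under 0.05, as did 4.09% of all tested genes.

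The planar polarity pathway to which Cthrc1 belongs showed no call. Over its 29 genes the median log2 fold change was 0.03, the same as over all genes, and 1 had an unadjusted p under 0.05: Ptk7, a planar polarity co-receptor, at 0.64 ± 0.23. Among the receptors, Fzd8 had a log2 fold change of 0.30 ± 0.18 and Fzd4 of -0.30 ± 0.18. The core component Vangl2 had one of -0.15, and the ligand Wnt5a one of -0.38. In canonical Wnt signalling, 27 genes had a median of 0.03, with Sfrp4, a secreted Wnt antagonist, at 0.97 ± 0.40. Of the 18 genes of the TGF-beta pathway 2 had an unadjusted p under 0.05, the ligand Tgfb3 (0.58 ± 0.22) and the decoy receptor Bambi (0.41 ± 0.19), and the median was -0.05. Over all tested genes 4.09% had an unadjusted edgeR p under 0.05.

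**Figure D5:**
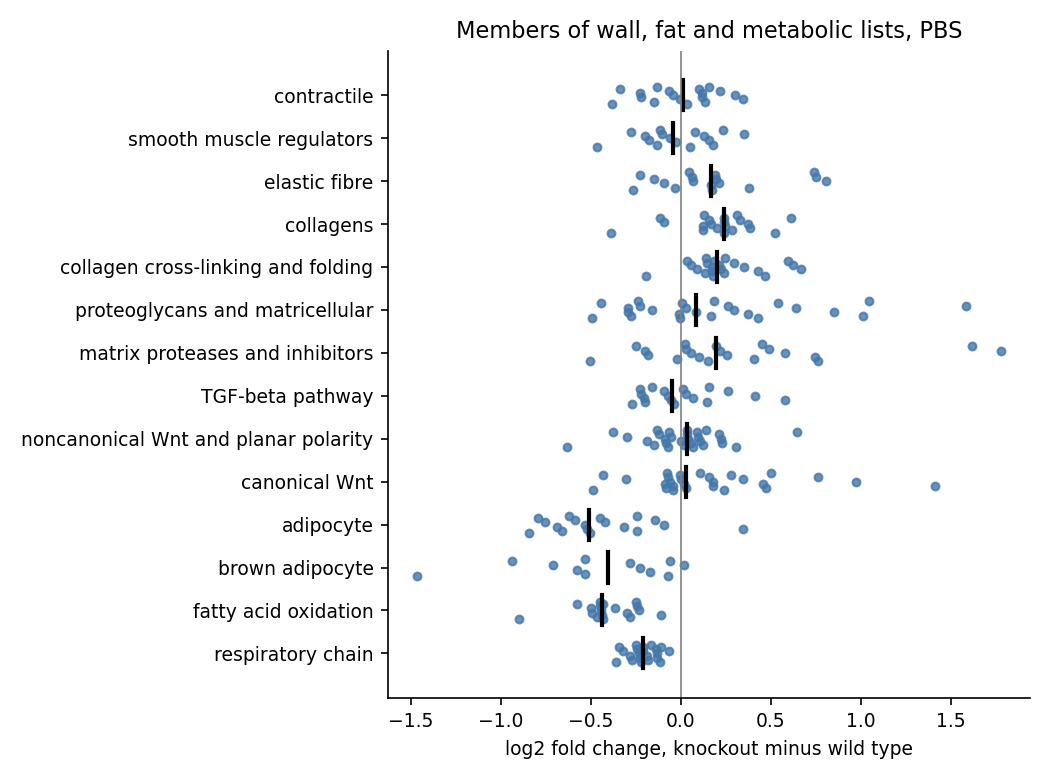
Log2 fold change, knockout minus wild type (horizontal axis), of the tested members of 14 lists; each point is a gene and the black bar the median of its list. Medians lie between -0.51 (adipocyte) and 0.24 (collagens), against 0.03 for all genes.

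Genes of the fat around the aorta and of fat burning lay lower in knockout, again without a call. All 18 genes of fatty acid oxidation had a negative log2 fold change, with a median of -0.44. Acadvl, the first enzyme of long-chain beta-oxidation in the mitochondrion, lay at 210 to 498 CPM in wild type and at 175 to 346 CPM in knockout (log2 fold change -0.58 ± 0.26), and Eci1, an enoyl-CoA isomerase, had one of -0.50 ± 0.22. Of the 18 adipocyte genes 17 were negative, with a median of -0.51. Lpl, the lipoprotein lipase, measured 854, 818 and 1250 CPM in plain wild type and 508, 1230 and 928 CPM in F wild type, and 703, 518 and 578 CPM in plain knockout and 511, 297 and 537 CPM in F knockout. Only wild type F 1 lay within the knockout range, and the log2 fold change was -0.84 ± 0.23 (DESeq2 adjusted p = 0.107). Pparg, the master factor of fat cells, had a log2 fold change of -0.66 ± 0.22. The brown fat marker Ucp1 ran from 167 to 1084 CPM in wild type and from 86.9 to 661 CPM in knockout (log2 fold change -0.94 ± 0.55). Without the 4 libraries with high Rn7sk the medians were -0.37 for fatty acid oxidation and -0.16 for adipocytes. The nuclear genes of the respiratory chain, 21 in all, were all negative with a median of -0.21. The 15 mitochondrially encoded genes were all negative too, with a median of -0.25, -0.53 in the F set and 0.04 in the plain set.

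Stress and immune lists held no DESeq2 call. Of 22 immediate early genes 19 were positive, with a median log2 fold change of 0.29, and Fos, a transcription factor that handling of tissue is known to induce, had one of 0.71 ± 0.26 and Ier5 one of 0.80 ± 0.21. Of 22 genes of heat shock and endoplasmic reticulum stress 4 were higher and 1 lower at an unadjusted p under 0.05, with Creld2 at 0.59 ± 0.18 and the chaperone Hspa5 (BiP) at 0.39 ± 0.15. Over all tested genes 2.92% were higher and 1.17% lower at an unadjusted edgeR p under 0.05. Interferon-stimulated genes had a median of 0.08 and macrophage genes of 0.24, with no call in either. All 14 T and NK cell genes were positive at a median of 0.67, at a summed level of 7.47 to 26.7 CPM in wild type and 8.66 to 36.9 CPM in knockout, which overlap. That median was 1.30 for plain and 0.20 for F libraries. It was 0.35 without the libraries with pancreatic transcripts and 0.87 without the 4 with high Rn7sk. The highest sum was that of knockout plain 3, which held pancreatic transcripts. H2-DMb1, which loads peptides on class II molecules, had groups fully apart, at 6.38 to 8.53 CPM and 8.64 to 17.9 CPM (log2 fold change 0.62 ± 0.16, DESeq2 adjusted p = 0.118). Endothelial genes had a median of -0.11 and fibroblast genes of 0.17, and the cell cycle list one of 0.01.

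Genes that flank Cthrc1 were examined because a knockout can carry chromosome around the altered gene from another strain. Within 5 Mb on either side 71 genes were tested. Neither DESeq2 nor edgeR, which called 0 of 22778 genes, called any of them. An unadjusted edgeR p under 0.05 was held by 4, a share close to the 4.09% over all tested genes. The 4 were Dpys, Rspo2, Rida and Abra, with log2 fold changes of 2.22, 1.21, 1.36 and 0.76. Dpys, an enzyme of pyrimidine breakdown that kidney and liver express, lay at 0.124 to 1.04 CPM in wild type and at 0.302 to 5.35 CPM in knockout.

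Between the title sets no difference of the genotype effect was called. The effect within each set was a contrast in an edgeR fit of group means to all 12 libraries, so its spread came from both sets. For the plain set, 3 against 3, edgeR called 0 genes with 1255 at an unadjusted p under 0.05 (5.51%). For the F set it called 0 with 1056 (4.64%). The difference of the genotype effect between sets had 0 calls and 1872 genes at an unadjusted p under 0.05 (8.22%), a larger share than for the genotype effect itself. Nr1d1 (unadjusted p = 0.00136) had log2 fold changes of -2.49 in one set (plain) and -0.56 in the other. Arntl (unadjusted p = 0.0445) had 1.17 for plain libraries and 3.26 for F libraries. A set of 3 against 3 cannot go below p = 0.10 in an exact permutation test, which is the value Cthrc1 had in each.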

How the data were processed

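Total RNA for 12 PBS aorta libraries was prepared with a stranded total RNA kit and sequenced as paired ends, per the labels' protocols. The authors' deposited table holds raw counts per gene and FPKM values, per the file headers. HISAT2, StringTie, DESeq2 and GRCm38 are named without versions in the submitters' processing notes. The counting strand is not given in the sources used here. The table also held 4 columns of 2 further libraries, which were not used.

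Counts were filtered (filterByExpr, minimum count 10, minimum total 15), which left 22778 of 40141 genes, scaled by TMM and tested with edgeR 4.0.16 (robust quasi-likelihood test, R 4.3.3) with title set as a term and Benjamini-Hochberg adjustment over all tested genes. The common coefficient of biological variation was 55.5%. DESeq2 1.42.0 and limma 3.58.1, the latter also on log2(FPKM + 1), were alternatives. The fit was tested on simulated data. A floor is 3 counts and covers counting error only. The SE is that of edgeR's fit and includes the spread between libraries. scipy gave the exact test.

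Genes named by rule were Cthrc1 and, besides it, the 12 with the smallest p in each direction among named genes at a mean of at least 1 CPM with the same sign in both sets, and 2 members a list. The members and the 47 lists were chosen with earlier results of these data known. Lists of major urinary proteins and pancreatic enzymes, the use of Rn7sk and the genes called by DESeq2 were chosen after the values were seen. The main fit did not treat library numbers as pairs.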

Additional observations from a re-analysis of the deposited data

Results flagged for a closer look

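In 4 of the 62 genotype groups examined, 31 genes or lists in 6 libraries each, 1 library stood apart from the other 5 on the log2 scale, its gap being more than 0.625 of the range of the group. Chance alone flags about 1 group in 20. Pisd-ps1 was lowest in knockout plain 2 (17.9 CPM, a gap of 0.628 of the range). Lpl was lowest in knockout F 2 (297 CPM, a gap of 0.630). The summed major urinary protein genes were lowest in wild type plain 1 (1.15 CPM, a gap of 0.736). The summed collagen genes were lowest in knockout F 3 (12680 CPM, a gap of 0.687).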

How the results depend on the processing

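The edgeR count of 0 for the genotype effect became 39 with DESeq2, 1 with limma-voom and 2 without the 4 libraries with high Rn7sk (Pisd-ps1 and the second Nnt model), and ran from 0 to 1 over the 12 fits that left out a library. The difference between sets gave 1 call without those 4 libraries, 2 with the Rn7sk class as a covariate and 0 to 1 when a library was left out. The plain set gave 3, 1 and 0 to 1 calls under the same changes, and the F set 0 to 1 when a library was left out. Cthrc1 lay between -2.73 and -2.17 on the log2 scale, and at -0.70 on the compressed log2(FPKM + 1) scale, and passed the threshold only with DESeq2 (-2.35, adjusted p = 2.36e-06). DESeq2's 39 calls became 86 without the 4 libraries, 105 with the covariate and 19 to 163 when a library was left out. Of the 39, 10 were called in every fit that left out a library, 14 without the 4 libraries, 39 with the covariate and 18 without the 2 libraries with pancreatic transcripts. The cause was not tested. All 112 genes followed kept their sign in every alternative that gave them a value, 25 for most and 23 or 24 for Ctrb1, Dpys, Trem2, Mas1, Prss2, Cel and Gp2.

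Libraries with the same number deviated together in some pairs only, with correlations of -0.0943, -0.101 and 0.0476 in the plain set and 0.458, 0.171 and -0.304 in the F set. So few pairs cannot show whether the numbers pair the samples. With the replicate number as a block edgeR called 0 genes, and 0 in each set, and DESeq2 67. Precision is limited by the spread between libraries and, for genes below 1 CPM such as Cthrc1 in knockout, by 12 to 44 reads.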
